A study of Mus musculus with 18 samples.

Results

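The mitochondrial ribosomal proteins are the protein subunits of the mitoribosome, and 76 of their genes were measured in the developing mouse ileum. The members were all genes whose single annotated symbol was Mrpl or Mrps followed by a number, 76 of 18194 named genes. They were read by 156 probe sets with 1 symbol, and each gene was represented by its probe set with the highest mean over all arrays. All 76 passed the filter on dim probe sets, a log2 level of 6 on at least 3 arrays, as did 8622 genes in all. The choice of members, by symbol, used no measured difference between ages, but earlier results of these data were known.

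The mitoribosome translates the few messages encoded by mitochondrial DNA, which are core subunits of the respiratory chain and of ATP synthase. All of its proteins are encoded in the nucleus and imported. Its large (Mrpl) and small (Mrps) subunits hold counterparts of bacterial ribosomal proteins together with proteins found only in mitochondria, and it is built on rRNA made from mitochondrial DNA. In the intestine, enterocytes carry many mitochondria, which supply the ATP used for absorption.

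Ileum was taken in full thickness from C57BL/6 mice, an inbred laboratory strain, on postnatal days 4, 7, 9, 11, 24 and 32. Each age held 3 individual mice, giving 18 arrays, and no treatment, transgene, sex or batch is named in the labels. One animal number stands in the titles of both day 7 replicate 3 and day 9 replicate 2; their Xist levels were 4.69 and 9.74, and they were treated as separate mice. The ages up to day 11 (12 arrays) are called early here and days 24 and 32 (6 arrays) late. The labels place the series across weaning without naming its day. Laboratory mice are generally weaned at an age that falls in the gap between these stages.

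Values are log2 levels made with RMA, so that a difference of 1 is a doubling.  Control probe sets differed between the ages: the poly-A spike controls stood at 3.53 to 4.51 on early and 4.98 to 6.37 on late arrays. The rRNA control (18S) stood at 4.93 to 8.19 on early arrays, 10.26 to 10.85 on day 24 and 7.01 to 7.96 on day 32. Hybridization controls fell into a higher group of 10 arrays, with all 6 late and 4 early arrays, and a lower group of 8 early arrays. Xist, which females express from their inactive X, was high on 9 early arrays and 1 late array. The part of the hybridization group and of Xist in the results below was tested only as far as the alternative fits show. No fit took in the poly-A or rRNA controls, and their part was not tested. The poly-A ranges of early and late arrays did not overlap, so this difference cannot be told apart from that between the stages.

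The mitoribosomal protein messages followed a shallow course with a low point on day 11 and a high point on day 24. The mean log2 level of the 76 members was 7.97 ± 0.08 on day 4, 7.90 ± 0.08 on day 7 and 7.86 ± 0.01 on day 9 (SD, n = 3 mice each). It was 7.70 ± 0.15 on day 11, 8.07 ± 0.19 on day 24 and 7.92 ± 0.11 on day 32. The mean over all 8622 genes tested took another course: 7.59 on day 4, 7.63 on day 7, 7.64 on day 9 and 7.58 on day 11. It was 7.51 at both late ages, and it too was lower on day 11 than on day 9. Age means were lowest on day 11 in 54 of 76 members, where 21.1% of all genes tested had their lowest mean, and highest on day 24 in 43 members against 19.7% of all genes. A further 22 members had their highest mean on day 4, against 13.8% of all genes. The lowest mean fell on day 32 in 13 members, against 29.8%. The limma F test over the ages called 43 of 76 members (56.6%) and 68.3% of all genes tested, and the difference between these shares was not tested. It called 25 members with the Xist level as a covariate (57.7% of all genes) and 24 with the higher hybridization group alone (50.0%).

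**Figure D1:**
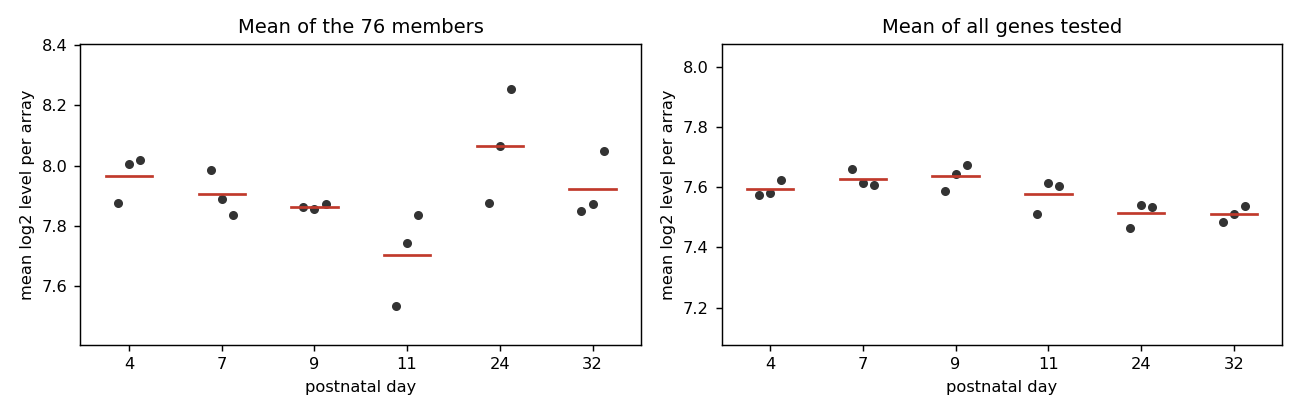
Mean log2 level per array (y) by postnatal day (x) for the 76 members and for all 8622 genes tested; points are arrays, lines are age means, and both panels span the same number of log2 units. The lowest member mean is on day 11 (age mean 7.70) and the highest on day 24 (8.07), with single arrays of these ages far apart.

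Members moved together from mouse to mouse within an age, which widens the error of every group value. On day 11 the member means were 7.53, 7.74 and 7.84, and on day 24 they were 7.87, 8.07 and 8.25. Day 24 replicate 3 exceeded its age mean in 73 of 76 members and day 32 replicate 3 in 70. Day 11 replicate 1 did so in 11 members and day 24 replicate 1 in 4. All members on an array share its RNA quality, so the correlations that follow are a description. Over the 18 arrays, a member's correlation with the mean of the other members had a median of 0.70, and 0.72 once age means were removed. It was highest for Mrps18b, at 0.94. It was below 0 for 4 members, Mrpl9, Mrpl23, Mrpl27 and Mrpl50, picked out after their values were seen. Day 11 replicate 1 also had the highest rRNA control among early arrays, 8.19. Day 24 replicate 3 had the largest gap between the 3′ and 5′ probe sets of actin, a mark of RNA integrity, at 1.40 against 0.35 to 0.80 on early arrays. The part of these in the members' levels was not tested beyond leaving arrays out.

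**Figure D2:**
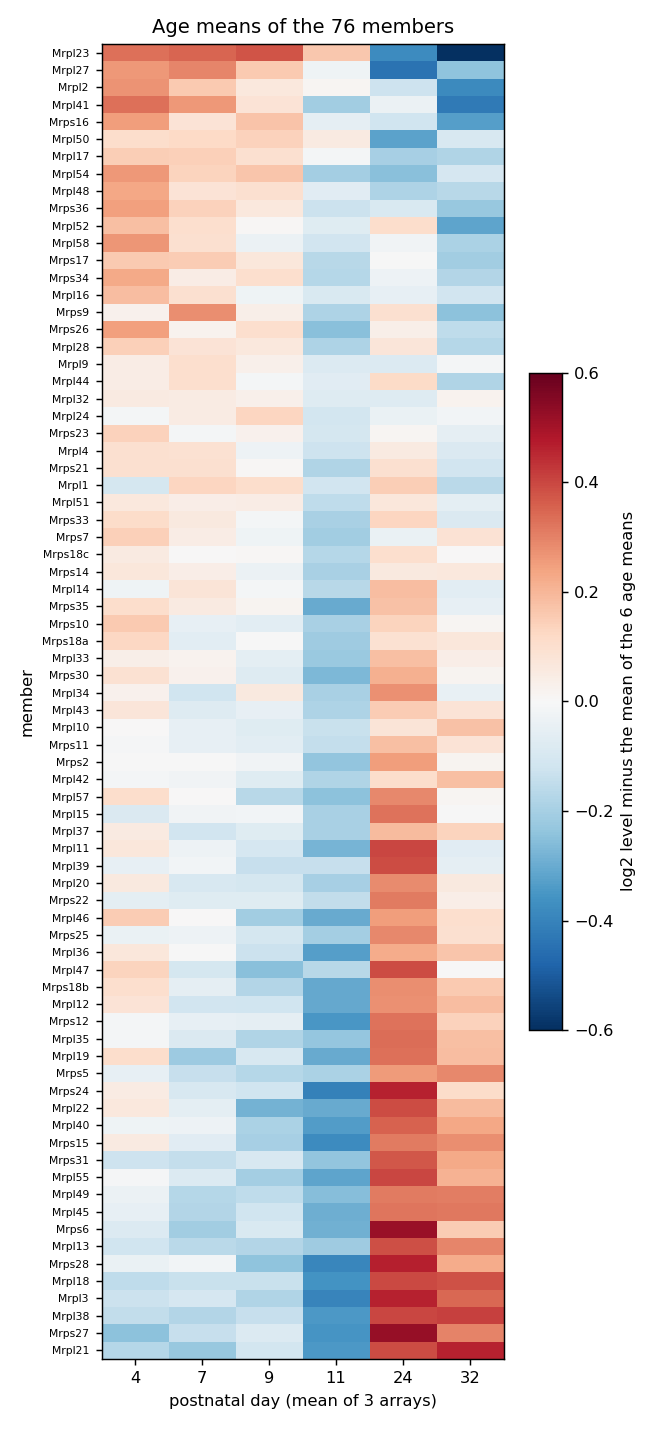
Age means of the 76 members (rows, ordered by the difference between late and early arrays) on each postnatal day (columns), as log2 level minus the mean of the gene's 6 age means. Day 11 is the lowest column for 54 members and day 24 the highest for 43, while Mrpl23 and Mrpl27, at the top, are lower on day 24 than on day 11.

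The start regions of the mitoribosomal genes were read next, as a description. A window from 250 bases before to 50 bases after the start was available from RefSeq (GRCm38.p6) for 67 members, in 73 windows, and for 17492 protein-coding genes in 21263 windows. Both strands were searched for the NRF1 site, for CCGGAAG, an ETS site of the kind GABPA binds, for AANATGGC, a YY1 site, and for GGGCGG, a site of SP and KLF factors, and no string lies within another. The NRF1 string is the one in capitals in the Mrpl12 and Mrpl39 sequences below, with any base in the fifth place. NRF1, GABPA and YY1 are known regulators of nuclear genes for mitochondria. The NRF1 string lay in 16.4% of member windows and 6.38% of all windows, the ETS string in 34.2% and 11.6%, and the YY1 string in 28.8% and 6.37%. The SP string differed less, at 53.4% and 46.2%, and the median GC content was 58.7% and 56.3%. Members called higher on late arrays had 32 windows from 32 genes, and those called lower had 14 windows from 8 genes. Among those called lower, some genes are therefore counted more than once in the shares that follow. The NRF1 string lay in 12.5% and 7.14% of these, and the ETS string in 31.2% and 28.6%. For the YY1 string the shares were 37.5% and 7.14%, and for the SP string 50% and 78.6%. Whether these shares differ, or bear on the levels, was not tested. Windows were not matched on GC content, and a match is a description of letters, not of binding.

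The upstream parts of 7 windows are shown because they belong to members described below, with any NRF1, ETS or YY1 match in capitals. SP matches are left in lower case. Mrpl3 (chr9:105053118-105053267, plus strand) and Mrps27 (chr13:99344679-99344766, plus strand) hold the ETS string, in Mrps27 on the opposite strand. Mrpl12 (chr11:120484487-120484636, plus strand), Mrpl39 (chr16:84735245-84735394, minus strand) and Mrpl17 (chr7:105811088-105811237, minus strand) hold the NRF1 string, in Mrpl17 on the opposite strand, and Mrpl17 is among the members called lower on late arrays. Mrpl46 (chr7:78783090-78783130, minus strand) shares its short window with the oppositely transcribed Mrps11, and Mrps12 (chr7:28741822-28741956, minus strand) shares its window with Sars2. Neither of these holds any of the NRF1, ETS and YY1 strings in the bases shown. All are written 5′ to 3′ on the gene's strand.
Mrpl3: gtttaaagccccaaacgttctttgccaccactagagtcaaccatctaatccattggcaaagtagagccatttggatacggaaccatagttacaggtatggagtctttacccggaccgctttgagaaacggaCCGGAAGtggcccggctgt
Mrps27: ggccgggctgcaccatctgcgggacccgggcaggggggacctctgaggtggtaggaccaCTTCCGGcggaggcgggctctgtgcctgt
Mrpl12: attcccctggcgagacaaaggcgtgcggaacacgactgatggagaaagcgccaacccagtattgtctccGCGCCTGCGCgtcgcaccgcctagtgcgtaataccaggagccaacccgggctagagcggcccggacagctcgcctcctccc
Mrpl39: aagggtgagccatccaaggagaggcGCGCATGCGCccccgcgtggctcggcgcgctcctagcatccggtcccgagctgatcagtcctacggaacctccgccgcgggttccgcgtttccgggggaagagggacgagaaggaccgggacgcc
Mrpl17: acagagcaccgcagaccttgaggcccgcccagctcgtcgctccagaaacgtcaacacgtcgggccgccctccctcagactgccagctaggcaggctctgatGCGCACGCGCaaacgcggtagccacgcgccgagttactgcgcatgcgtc
Mrpl46: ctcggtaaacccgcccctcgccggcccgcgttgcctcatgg
Mrps12: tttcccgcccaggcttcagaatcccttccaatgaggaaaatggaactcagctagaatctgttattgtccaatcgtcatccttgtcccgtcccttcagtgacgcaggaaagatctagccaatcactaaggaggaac

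Divergent neighbours were frequent among the members. A gene starting within 1000 bases on the opposite strand was present for 23 of 67 members (34.3%) and for 1483 of 17492 protein-coding genes (8.48%). The Mrpl46 and Mrps11 starts lie 42 bases apart, so that a large-subunit and a small-subunit gene share the printed window. From day 11 to day 24 Mrpl46 rose by 0.55 ± 0.15 (log2 difference ± SE, adjusted p = 0.00485, limma), and Mrps11 differed by 0.32 ± 0.17 (adjusted p = 0.105). Mrps27 and Ptcd2, which encode RNA-binding proteins of mitochondria, start 108 bases apart. Ptcd2 was 0.31 ± 0.09 higher on late arrays (adjusted p = 0.00441). Mrps27 differed by 0.61 ± 0.15, but it reached the filter's level of 6 on 4 late arrays and 1 early array, so it passed the filter only through the side where it was higher, and no support is drawn from its call. Mrpl43 and Twnk, the helicase of mitochondrial DNA, start 116 bases apart and were 0.18 ± 0.07 and 0.30 ± 0.07 higher (adjusted p = 0.0337 and 0.000581). Other pairs went apart. Mrpl49 was 0.46 ± 0.11 higher on late arrays (adjusted p = 0.000931), while its other probe set past the filter was not called (0.14, limma adjusted p over 12916 probe sets 0.0848). Fau, which encodes a cytosolic ribosomal protein made as a fusion, starts 192 bases away and fell by 0.30 ± 0.10 on the log2 scale (adjusted p = 0.0144). These pairs were chosen after their values were seen.

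The comparison of late with early arrays asked how the mitoribosomal messages stood after against before weaning. On late arrays 37 of 76 members were called higher, 48.7% against 31.0% of all genes tested, and 8 were called lower, 10.5% against 41.8%. The other 31 were not called, with differences from -0.32 (Mrpl50) to 0.20 (Mrps11). The median difference was 0.18 for the members and -0.07 for all genes, and called rises ran from 0.18 (Mrpl43) to 0.64 (Mrpl21). The count of rises includes Mrps27, which passed the filter only through late arrays. Early and late arrays did not overlap, with the late ones higher, for 11 members, 14.5% against 15.4% of all genes, a share near the background. With the late ones lower this held for 1 member, Mrpl23, against 21.7% of all genes.

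The excess of rises rested on day 24. With the day 24 arrays left out, an alternative added after seeing the data, 21 members were called higher, 27.6% against 28.9% of all genes, and 13 lower, 17.1% against 39.2%. On day 32 alone, then, the share of members called higher was near the background, and the share called lower was below it. Without day 24 replicate 3 the late arrays gave 29 members higher and 12 lower, and the share of all genes in that fit is not given here.

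Of the 6 largest rises without overlap, 5 were in proteins of the large subunit. Mrpl21 (chromosome 19), counterpart of the bacterial protein of the same number, ran from 6.83 to 7.26 (median 7.15) on early arrays and read 7.53, 7.65 and 7.96 on day 24 and 7.71, 7.71 and 7.93 on day 32. Every late array lay above every early one, a 1.56-fold rise (limma log2 difference 0.64 with an SE of 0.07, n = 6 late and 12 early arrays, adjusted p = 2.89e-07). Mrpl38, a protein found only in mitochondrial ribosomes, ran from 6.53 to 6.92 (median 6.79) early and from 7.10 to 7.63 (median 7.37) late. It was 1.52-fold higher (0.61 ± 0.08, adjusted p = 2.22e-06).

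Mrpl3, the counterpart of a bacterial protein that reaches toward the catalytic centre, read 7.44, 7.03 and 7.43 on day 4, 6.80, 7.20 and 7.10 on day 11, and 7.63, 7.98 and 8.06 on day 24. On day 32 it read 7.76, 7.69 and 7.87, so that no late array fell into the early range of 6.80 to 7.45. It was 1.52-fold higher (0.60 ± 0.09, adjusted p = 4.98e-06). Mrpl18 rose as well (0.58 ± 0.10, adjusted p = 6.35e-05), from 7.07 to 7.94 early to 8.12 to 8.45 late. Mrpl13 rose 1.42-fold (0.51 ± 0.07, adjusted p = 1.45e-06), from 8.46 to 8.72 early to 8.92 to 9.35 late. Both have bacterial counterparts, and neither overlapped between the sides. In the small subunit, the bacterial-type protein Mrps6 ran from 7.05 to 7.56 (median 7.36) early and from 7.67 to 8.31 (median 7.76) late, 1.42-fold higher (0.50 ± 0.07, adjusted p = 8.17e-06), also without overlap.

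**Figure D3:**
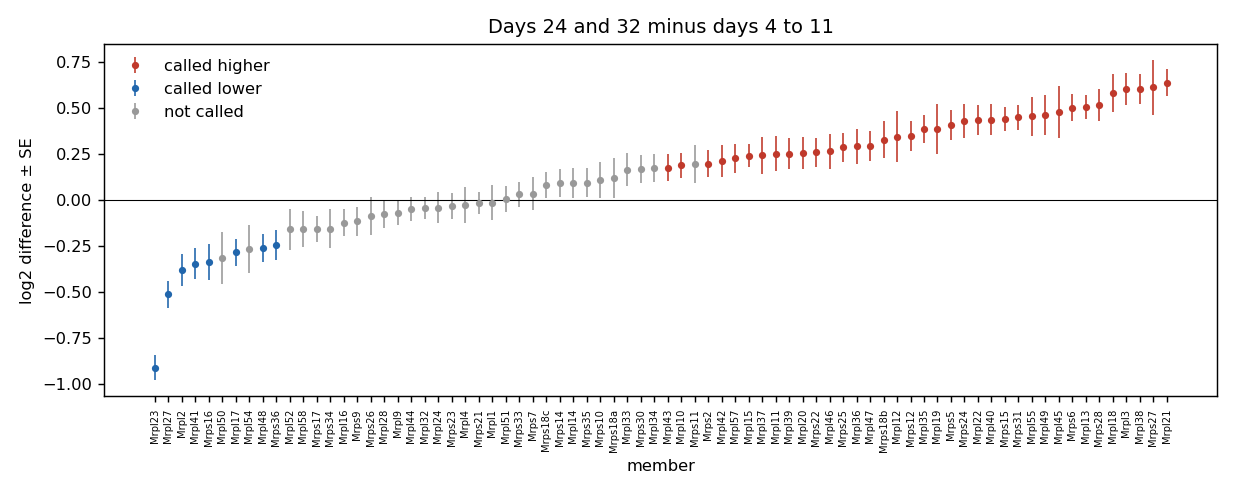
Log2 difference of late (days 24 and 32) minus early (days 4 to 11) arrays for each of the 76 members, ordered by size, with SE from the limma fit; red marks members called higher, blue members called lower and grey members not called. The 37 red points end at 0.64 (Mrpl21), and Mrpl23 stands apart at -0.91.

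Mrpl23 ran against the family. It encodes the counterpart of the bacterial protein that borders the exit of the peptide tunnel. Its levels (chromosome 7) ran from 9.53 to 9.85 (median 9.75) on early arrays, and were 8.93, 8.94 and 9.21 on day 24 and 8.58, 8.43 and 8.69 on day 32. All late arrays lay below all early ones and all of day 32 below all of day 24. Mrpl23 was 1.88-fold lower on late arrays (-0.91 ± 0.07, adjusted p = 8.68e-10), and with each array left out in turn the difference stayed between -0.96 and -0.88.

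Mrpl27, counterpart of a bacterial protein that reaches the peptidyl transferase centre, ran from 9.28 to 9.88 (median 9.71) early and from 8.90 to 9.45 (median 9.15) late. The ranges overlapped, and it was 1.43-fold lower (-0.51 ± 0.07, adjusted p = 4.17e-06). The other falls, named after their values were seen, were Mrpl2 (-0.38), Mrpl41 (-0.35), Mrps16 (-0.34), Mrpl17 (-0.28), Mrpl48 (-0.26) and Mrps36 (-0.24). They come from both subunits and include bacterial-type proteins (Mrpl2, Mrpl17, Mrps16) and mitochondrion-specific ones (Mrpl41, Mrpl48). Mrps36, named as a ribosomal protein, is known as a component of the 2-oxoglutarate dehydrogenase complex, and ran from 8.00 to 8.76 early and 8.03 to 8.47 late (adjusted p = 0.0133). Its fall was not called with each array centred on its median (-0.12, adjusted p = 0.171) or with the hybridization group as a block (adjusted p = 0.0545).

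The counts in each subunit and evolutionary class are to be read beside 31.0% of all genes called higher and 41.8% lower. Of 29 bacterial-type proteins of the large subunit 15 rose and 4 fell (median 0.19), and of 20 mitochondrion-specific ones 10 rose and 2 fell (median 0.17). Of 16 bacterial-type proteins of the small subunit 7 rose and 1 fell (median 0.15), and of 10 mitochondrion-specific ones 5 rose and 0 fell (median 0.18). All 3 members listed for the stalk, which recruits translation factors, were called higher: Mrpl10 (0.19), Mrpl11 (0.25) and Mrpl12 (0.35). Of the other Mrpl11 probe sets past the filter, the brighter was not called (0.05, limma adjusted p over 12916 probe sets 0.666). The dimmer was called higher (0.29, adjusted p = 0.0167). Of 7 proteins around the peptide exit, 3 rose (Mrpl22 by 0.44, Mrpl45 by 0.48 and Mrpl47 by 0.29) and 2 fell (Mrpl17 and Mrpl23). The differences between these lists were not tested.

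Other members had been chosen for their roles. Mrpl12, the stalk protein that also binds the mitochondrial RNA polymerase, ran from 7.97 to 9.15 (median 8.58) early and 8.64 to 9.26 (median 8.86) late. The ranges overlapped widely, and its rise (0.35 ± 0.14, adjusted p = 0.0326) was not called without the day 24 arrays (adjusted p = 0.143), without the day 11 arrays (adjusted p = 0.0799) or without any 1 of 6 single arrays (day 4 replicate 1, day 7 replicate 3, day 11 replicate 1, day 24 replicates 2 and 3, and day 32 replicate 3). Mrps12, a protein of the decoding centre, ran from 7.27 to 7.96 early and 7.90 to 8.30 late and rose by 0.35 ± 0.08 (adjusted p = 0.000868).

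Mrpl44, a large-subunit protein with a ribonuclease fold, ran from 7.49 to 7.79 early and 7.35 to 7.95 late. Its difference of -0.05 ± 0.07 was not called (adjusted p = 0.523) and changed sign with median centring (0.07), cyclic loess (0.02) and the mean of its probe sets (0.03). Without the day 24 arrays it was called lower (-0.20, adjusted p = 0.0290). Mrps30, which sits in the large subunit despite its name, differed by 0.17 ± 0.08 (adjusted p = 0.0516). It was called higher with median centring (0.29, adjusted p = 0.00234), cyclic loess (adjusted p = 0.0120) or quantile normalization (adjusted p = 0.0202). With probe set means (adjusted p = 0.0463) or the stricter filter (adjusted p = 0.0476) it was called too. Mrps30 has a single probe set, so in those 2 settings its own values were unchanged and only the other genes differed.

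The paralogs Mrps18a, Mrps18b and Mrps18c, which occupy different places in the mitoribosome, gave separate values on separate probe sets. Mrps18b, of the small subunit, ran from 6.83 to 7.60 early and 7.30 to 7.98 late and rose by 0.33 ± 0.10 (adjusted p = 0.00708). Mrps18a, which sits in the large subunit, differed by 0.12 ± 0.11 (adjusted p = 0.329), and Mrps18c, of the small subunit, by 0.08 ± 0.07 (adjusted p = 0.308). With median centring these were called higher too (0.24 and 0.20, adjusted p = 0.0471 and 0.0114). Whether the paralogs differed from each other was not tested.

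**Figure D4:**
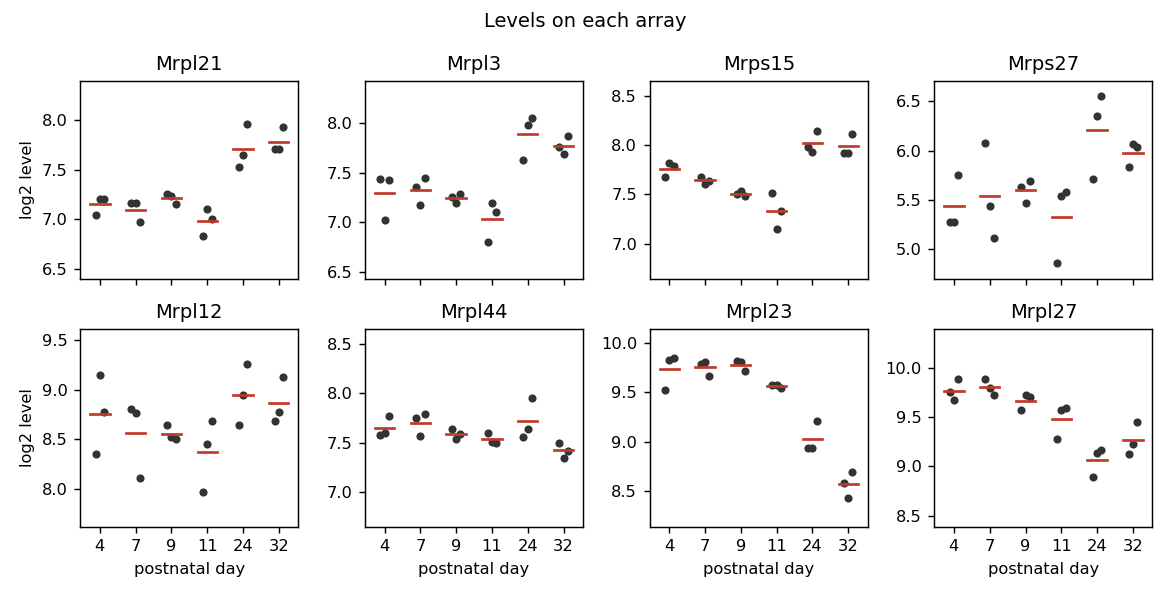
Log2 level on each array (points, 3 mice per age) and age mean (red line) by postnatal day for 8 members, each panel spanning 2 log2 units. Mrpl21, Mrpl3 and Mrps15 stand above their early range on days 24 and 32, Mrpl44 does not, and Mrpl23 falls at both late ages.

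Before weaning the members drifted down together by small amounts. Between day 4 and day 11 all 76 differences were below 0, whereas 44.8% of all genes tested lay above 0, and the median was -0.26 against -0.03. Few of them passed the test: 2 members were called lower, 2.63% against 1.54% of all genes, and 0 higher against 1.35%. With the hybridization group as a block 8 members were called lower, against 3.44% of all genes; day 4 holds 2 arrays of the higher group and day 11 holds 1. At an unadjusted p under 0.05, 30 of 76 members were lower, 39.5% against 10.6% of all genes, and 0 were higher against 8.13%. The 3 arrays of each age did not overlap, with day 11 lower, for 28 members (36.8% against 12.4%) and, with day 11 higher, for 0 (8.69%). Without day 11 replicate 1 the median was -0.18, and without day 11 replicate 3 it was -0.32.

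The called pair were one protein of each subunit. Mrps15, the counterpart of a bacterial protein at a bridge between the subunits, read 7.68, 7.82 and 7.78 on day 4, 7.68, 7.61 and 7.64 on day 7 and 7.51, 7.54 and 7.49 on day 9. On day 11 it read 7.51, 7.15 and 7.33, below all of day 4, a fall of 0.43 ± 0.10 on the log2 scale (1.35-fold, adjusted p = 0.0323, limma). It then read 7.99, 7.93 and 8.14 on day 24, above all early arrays. Mrpl41, a mitochondrion-specific protein of the large subunit, read 9.02, 9.25 and 9.08 on day 4 and 8.48, 8.52 and 8.73 on day 11, without overlap (1.46-fold lower, -0.54 ± 0.14, adjusted p = 0.0418). Both calls were near the threshold: leaving out 1 array ended the call for Mrps15 in 5 of 18 cases (adjusted p up to 0.136) and for Mrpl41 in 9 (up to 0.168). Neither was called with only the arrays of both ages in the fit (adjusted p = 0.191 and 0.116).

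Of the single steps, limma called 0 members in either direction from day 4 to 7, day 7 to 9 or day 9 to 11, against 0.0464%, 0.0464% and 0.0348% of all genes higher and 0.0348%, 0% and 0.0116% lower. At an unadjusted p under 0.05, 0 members passed from day 4 to 7 (4.43% of all genes higher, 1.50% lower) and 0 from day 7 to 9 (0.916% and 1.50%). From day 9 to day 11, 0 were higher and 4 lower (1.48% and 5.54% of all genes). The members' median differences were -0.06, -0.03 and -0.17 in that order, beside 0.03, 0.01 and -0.07 for all genes tested.

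The rise to day 24 was the largest change of the members. From day 11 to day 24, 43 of 76 were called higher, 56.6% against 26.8% of all genes, and 2 lower, 2.63% against 32.3%. The median difference was 0.37 against -0.04, and 66 of 76 differences lay above 0 against 47.5% of all genes. The arrays of both ages did not overlap for 38 members that were higher on day 24 (50.0% against 26.5%) and for 2 that were lower (2.63% against 33.2%). This comparison starts from the age at which most members were lowest. Against the mean of days 4, 7 and 9, an alternative added after seeing the data, 29 members were higher on day 24 against 26.1% of all genes, 7 were lower against 37.9%, and the median was 0.18. Leaving out day 11 replicate 1 gave 33 members higher, and the share of all genes in that fit is not given here. The rRNA control was higher on every day 24 array than on any other array, and its part in the rise was not tested.

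Large rises occurred in both subunits. In the large subunit Mrpl3, whose values are given above, rose by 0.85 ± 0.14 (1.81-fold, adjusted p = 4.79e-05). In the small subunit Mrps24 and Mrps28 rose by amounts within the SE of that value. Mrps27, an RNA-binding protein of the pentatricopeptide repeat family, read 4.86, 5.54 and 5.58 on day 11 and 5.71, 6.35 and 6.55 on day 24. The ages did not overlap, and the difference was 0.88 ± 0.24 (1.84-fold, adjusted p = 0.00467). Its day 11 levels lay below the filter's level of 6, which it passed through late arrays, and without day 11 replicate 1 the difference was 0.64. Mrps24, the counterpart of a bacterial protein at the mRNA entry, read 8.15, 8.03 and 8.20 on day 11 and 8.70, 8.87 and 9.41 on day 24 (1.83-fold, 0.87 ± 0.15, adjusted p = 9.00e-05). Mrps28 read 7.08, 7.30 and 7.46 and then 7.92, 8.03 and 8.46 (1.81-fold, 0.86 ± 0.14, adjusted p = 5.71e-05). In both, every day 24 array lay above every day 11 array.

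The members called lower in this interval were Mrpl23 and Mrpl27. Mrpl23 went from 9.58, 9.57 and 9.55 on day 11 to 8.93, 8.94 and 9.21 on day 24 (-0.54 ± 0.11, adjusted p = 0.000432). Mrpl27 went from 9.28, 9.57 and 9.60 to 8.90, 9.14 and 9.16 (-0.42 ± 0.12, adjusted p = 0.00546). Neither overlapped between the ages. The fall of Mrpl27 was not called with the hybridization group as a block (-0.29, adjusted p = 0.0529) or with the mean of its probe sets (-0.21, adjusted p = 0.161). That mean takes in a dim probe set, with a mean level of 5.17, which did not pass the filter. With only the higher hybridization group, which holds 1 array of day 11, neither was called (-0.55, adjusted p = 0.0549 for Mrpl23 and -0.22, adjusted p = 0.409 for Mrpl27).

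After day 24 the levels of most members were lower again, by small amounts. From day 24 to day 32, 0 members were called higher against 6.09% of all genes and 3 lower, 3.95% against 6.23%, a share below the background. These counts rest on the probe set used for each gene, and other probe sets are given below. At an unadjusted p under 0.05, 0 were higher and 14 lower, 18.4% against 13.9%. The median was -0.14 against -0.01, and 15 of 76 differences lay above 0 against 48.6% of all genes. Without day 24 replicate 3 the median was -0.05 and 0 members were called lower.

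Mrpl23 fell further, by 0.46 ± 0.11 on the log2 scale (adjusted p = 0.0115). Mrpl39, a mitochondrion-specific protein, read 9.65, 9.75 and 10.22 on day 24 and 9.44, 9.46 and 9.38 on day 32 (-0.44 ± 0.14, adjusted p = 0.0404). Mrpl15, a bacterial-type protein, read 9.23, 9.20 and 9.35 and then 8.87, 8.83 and 9.10 (-0.33 ± 0.10, adjusted p = 0.0436). The day 24 arrays of each lay above the day 32 arrays. The call was lost on leaving out 1 array in 2 of 18 cases for Mrpl23, 8 for Mrpl39 and 14 for Mrpl15, and for all 3 with only the arrays of both ages in the fit (adjusted p = 0.0838, 0.140 and 0.180).

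Probe sets of the same gene did not always give the same answer. Of 20 members with more than 1 probe set past the filter, all probe sets had the same sign between late and early arrays in 14. Mrpl15 had 5 such probe sets, of which 4 were higher on late arrays by 0.24 to 0.51 and 1 was lower by 0.78 ± 0.11 on the log2 scale (adjusted p over 12916 probe sets 5.00e-06). With the mean of all its probe sets, dim ones included, Mrpl15 was not called (0.11, adjusted p = 0.0584), nor without the day 24 arrays (0.08, adjusted p = 0.393). For Mrpl9 and Mrps9 the probe set used was not called (-0.07 and -0.11), while others of the gene were called higher, up to 0.66 for Mrpl9 and 0.71 for Mrps9. The reverse was seen too: the probe set used was called higher, while another past the filter was not. This held for Mrpl11 (other probe set 0.05), Mrpl19 (-0.10), Mrpl39 (0.14), Mrpl49 (0.14) and Mrps24 (0.21). From day 24 to day 32 the Mrpl9 probe set used was not called (0.07). Others of Mrpl9 were called higher (0.58 and 1.22, limma adjusted p over 12916 probe sets 0.00303 and 0.000602). Another Mrpl48 probe set was called lower (-0.54, adjusted p = 0.0232), where the one used was not (0.02). No other Mrpl15 probe set past the filter was called in this step. Mrpl23 had a single probe set, so its fall had no second reading.

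The rest of the mitochondrial translation system was measured for comparison, in lists chosen with earlier results known. Of 4 mitoribosomal proteins under other names 2 were called higher on late arrays, Ptcd3 by 0.49 ± 0.08 and Chchd1 by 0.46 ± 0.07. Of 11 translation factors 5 rose and 1 fell (median 0.16). Gfm1, the elongation factor that moves the ribosome along, rose by 0.64 ± 0.08, and Tufm, which delivers the tRNA, by 0.34 ± 0.09. Mrrf, which recycles the ribosome, differed by -0.27. Of 11 tRNA synthetases and related enzymes 5 rose, with Lars2 at 0.63 ± 0.07, and 2 fell, with Iars2 at -0.50. These counts stand beside 31.0% of all genes called higher and 41.8% lower.

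Factors that build the mitoribosome were split. Of 21 assembly and rRNA modification factors 6 rose and 4 fell (median 0.02): Mterf3, a mitoribosome assembly factor, rose by 0.68 ± 0.11, whereas Nsun4, an rRNA methyltransferase that acts in assembly, fell by 2.35 on the log2 scale. Of 8 genes of mitochondrial DNA and its transcription 3 rose (Polrmt, the RNA polymerase, by 0.52, Tfam by 0.40 and Twnk by 0.30) and 2 fell (Polg, the DNA polymerase, by 1.38 and Ssbp1 by 0.53). Of 7 regulators of mitochondrial genes 4 rose, among them Ppargc1b (0.78), Myc (0.39) and Esrra (0.32), and 0 fell. Of the factors whose sites were searched, Gabpa differed by 0.01 (adjusted p = 0.942), Yy1 by -0.04 (adjusted p = 0.661) and Sp1 by 0.01 (adjusted p = 0.880), none of them called. Nrf1 was not among the 7 tested regulators, so no value is given for it. Of 10 genes of mitochondrial content 3 rose, with citrate synthase Cs at 0.55, and 2 fell, with the import receptor Tomm20 at -0.86.

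Subunits of oxidative phosphorylation, which assemble with the products of the mitoribosome, had medians of the same sign as the members. Of 74 nuclear-encoded subunits 33 were called higher and 12 lower on late arrays (median 0.13), beside 31.0% and 41.8% of all genes. Their medians were -0.20 from day 4 to day 11, 0.26 from day 11 to day 24 and -0.13 from day 24 to day 32, beside -0.26, 0.37 and -0.14 for the members. Cytosolic ribosomal proteins gave other values: of 44 tested 3 rose and 28 fell (median -0.20), beside the same shares of all genes, with medians of 0.01, -0.15 and -0.11 in the same intervals. The difference between the lists was not tested.

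**Figure D5:**
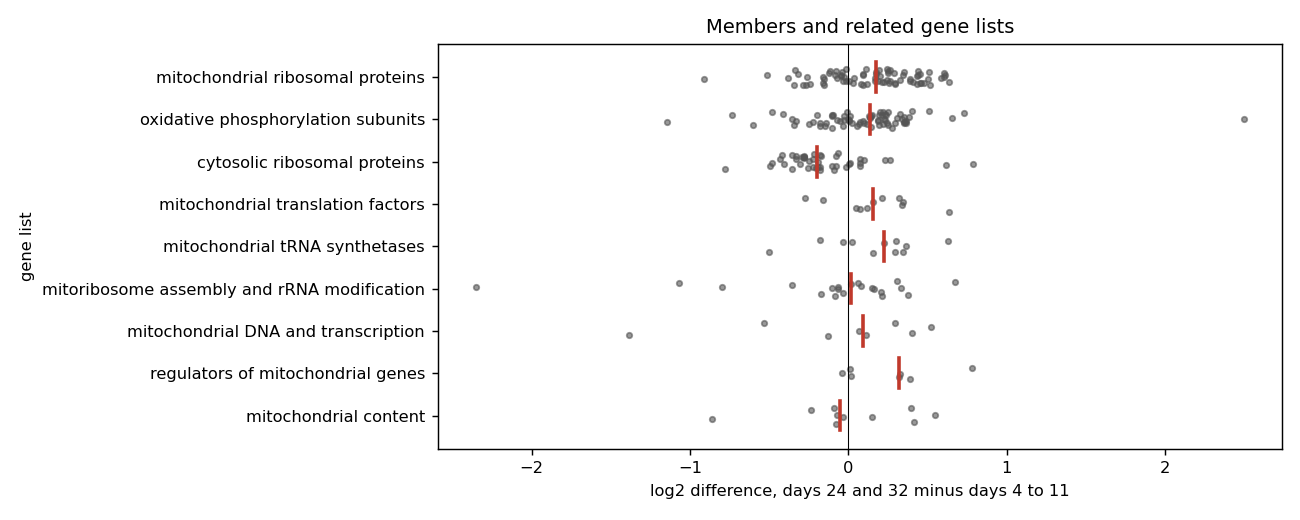
Log2 difference of late (days 24 and 32) minus early (days 4 to 11) arrays for each gene tested (points, spread vertically at random) in the mitoribosomal list and 8 related lists, with list medians in red. The medians are 0.18 for mitochondrial ribosomal proteins, 0.13 for oxidative phosphorylation and -0.20 for cytosolic ribosomal proteins.

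Marker genes of several cell types differed between the same ages. In bulk tissue, fewer cells of a type and less RNA per cell cannot be told apart. Of 6 epithelial markers 4 were called higher and 1 lower on late arrays, with a summed log2 level of 14.25 to 14.53 early and 14.65 to 14.98 late, and the epithelium was therefore present on every array. All 6 fibroblast markers (13.37 to 13.98 early, 12.30 to 12.98 late), all 3 tested endothelial markers (8.31 to 8.62, then 7.27 to 7.50) and all 3 tested markers of enteric neurons and glia (7.85 to 8.41, then 6.66 to 7.15) were lower. The summed levels take in every listed marker with a probe set, untested ones included. These were 5 for endothelium and 4 for enteric neurons and glia. Of 6 smooth muscle markers 2 were higher and 1 lower (13.54 to 13.86, then 13.33 to 13.82). Of 4 haematopoietic markers 2 were higher (8.92 to 9.45, then 8.98 to 11.68), and of 4 adipocyte markers 3 were higher and 1 lower (7.68 to 9.90, then 10.16 to 11.67). None of the 4 markers of skeletal and heart muscle passed the filter (6.35 to 6.71, then 6.17 to 6.89). The part of these changes in the members' levels was not tested.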

How the data were processed

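Expression was measured on 18 Affymetrix arrays, 3 individual mice at each of 6 ages. The authors deposited log2 levels, 1 per probe set, summarised by RMA according to the submitters' processing notes. No version, option, array model or scan date is named in the labels. The RNA was copied from its poly-A end, per the labels' protocols. Of 45101 probe sets, 34958 had 1 symbol in the platform annotation and 932 several, which were left out. All arrays entered a single limma fit (limma 3.58.1, R 4.3.3, functions lmFit and eBayes) on the 6 ages, with 12 residual degrees of freedom. P-values were Benjamini-Hochberg adjusted over 8622 genes and a gene was called below 0.05. They measure the spread between individual mice, and the number of arrays limits their precision. Folds are 2 to the log2 difference. The fit was tested on simulated data. The members, the lists and the rule for named members were chosen with earlier results of these data known. The rule took the 6 largest rises and falls among called members without overlap between late and early arrays, the 3 largest each way in the other comparisons, 8 members chosen for their roles, members whose probe sets were called in opposite directions, and up to 3 called genes each way per related list. Mrpl30 and Mrpl53 were read only by probe sets naming another gene too and were not analysed here. Alternatives were other filters, probe set means (dim probe sets included), 3 normalizations, other variance settings, the hybridization group, the Xist level and single arrays or ages left out.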

Additional observations from a re-analysis of the deposited data

How the results depend on the processing

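Between late and early arrays the median of the members stayed above that of all genes under every setting tried, and the 37 members called higher and 8 called lower became 48 and 6 with median centring (all genes 39.6% and 34.1%), which moved the median of all genes from -0.07 to 0.05. With only the arrays compared in the fit 0 members were called lower from day 4 to 11 and 0 from day 24 to 32. Without the filter on dim probe sets 1 member was lower in each of these steps. The mean of probe sets left 54 members and gave 0 lower from day 4 to 11, 1 lower from day 11 to 24 and 1 higher from day 24 to 32. From day 24 to 32, 9 were lower with quantile normalization, 8 with cyclic loess and 1 with median centring; cyclic loess gave 1 lower from day 4 to 11. With the hybridization group as a block, 5 were lower on late arrays, 8 lower from day 4 to 11 and 1 lower from day 11 to 24. The higher hybridization group alone holds 10 arrays, with 1 on day 11, and gave 3, 0 and 0 lower in these comparisons, 0 lower from day 24 to 32, a median of 0.56 from day 11 to 24 and 24 members by the F test. With the Xist level as a covariate, 1 was lower from day 4 to 11 and 1 from day 24 to 32, 26 were higher on late arrays (34.2% against 26.1% of all genes) and the F test called 25. Chosen after seeing the data, leaving out the day 24 arrays gave 21 higher and 13 lower, leaving out day 11 gave 29 and 12, and days 4, 7 and 9 as the base for day 24 gave 7 lower and a median of 0.18. The cause of these shifts was not tested. Counts given here without the share of all genes under the same setting cannot be read as above or below the background. Leaving out 1 array at a time gave 29 to 40 members higher and 8 to 12 lower on late arrays (median 0.14 to 0.22). It gave 0 higher and 0 to 3 lower from day 4 to 11 (median -0.32 to -0.18), 33 to 51 higher and 2 lower from day 11 to 24 (median 0.29 to 0.51), 0 higher and 0 to 9 lower from day 24 to 32 (median -0.25 to -0.05), and 31 to 45 by the F test. The lowest counts of rises came without day 24 replicate 3 and without day 11 replicate 1. Of the values of single named members under settings other than leaving out 1 array, 256 kept their direction and side of the threshold, 33 lost the call, 10 gained one and 3, all of the uncalled Mrpl44, changed sign. No paired analysis was possible because the replicate numbers only name the arrays within an age.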
